A study of Mus musculus with 8 samples.

Results

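The S100 calcium-binding proteins examined here are 9 genes: S100a8 and S100a9, which are known as myeloid genes, and S100a1, S100a4, S100a6, S100a10, S100a11, S100a13 and S100a16, which are known to be expressed more broadly. They were taken by symbol from the 22180 genes that have an array row naming that gene alone, and each of the 9 has 1 such row. Liver RNA came from 8 mice labelled as female C57BL/6, aged 6 weeks, with 3% dextran sulfate sodium (DSS, a polymer that injures the colon lining) in their water for 7 days. The groups were 4 wild-type mice and 4 mice labelled IL-10 knockout, so colitis was induced in each group and no untreated liver was part of the comparison. Interleukin-10 dampens immune responses, and the comparison asks how the liver transcript levels of S100 genes differ between these genotypes under DSS. Values are log2 levels from Affymetrix Mouse Gene 2.0 ST arrays after robust multi-array averaging (RMA), with 1 array per mouse. Levels of different rows are not compared as amounts, and the median level over genes, 6.55 to 6.67 in each array, serves only as a rough mark of low signal. The number of arrays limits the precision, and no detection call accompanies the values.

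S100 proteins are small proteins with paired EF-hand motifs that change shape when calcium binds, and most of them act as dimers. S100A8 and S100A9 form the heterodimer calprotectin, an abundant cytosolic protein of neutrophils and monocytes that withholds zinc and manganese from microbes and, once released, acts on Toll-like receptor 4 and on the receptor RAGE. The other members work mostly inside cells, on annexins, the cytoskeleton, membrane repair and protein export. In liver, which is mostly hepatocytes, transcripts of S100a8 and S100a9 are usually attributed to blood-derived cells.

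Facts of the whole series bear on every direction below. Il10 itself read 4.90 to 5.08 in the wild-type arrays and 5.69 to 6.41 in the arrays labelled knockout, below the median over genes in every array. It was higher by 1.00 in the arrays labelled knockout (SE 0.14, limma adjusted p = 0.00851). Its row was thus not lower in those arrays and does not check the labels. Although all mice are labelled female, 4 arrays had Xist signal of at least 11.7 and the other 4 had at most 6.32 together with signal of 3 Y-linked genes; replicates 1 and 2 of each group were of the Y-linked kind and replicates 3 and 4 of the Xist kind. At a limma adjusted p below 0.05, the arrays labelled knockout had 347 of 22180 genes higher and 352 lower; after each array was set to a common median, the counts were 209 and 330. The 12 hepatocyte markers had mean levels of 7.75 to 13.6 over the 8 arrays, and their summed log2 level was 16.44 to 16.54 in wild-type arrays and 16.52 to 16.61 in the others. In RNA from whole liver, a change in the number of cells of a type cannot be told apart from a change in RNA per cell.

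Of the 9 S100 genes, S100a8, S100a9 and S100a6 rose in the arrays labelled knockout, none fell, and 6 did not pass. That is 3 of 9, where 3.15% of all genes were called in either direction and 1.56% were called higher and 1.59% lower. Both myeloid members rose, and 1 of the 7 broad members did. The median log2 difference was 1.18 over the 2 myeloid members and -0.01 over the 7 broad ones, against 0.03 over all genes. The levels of the groups did not overlap for 4 of the 9, the called ones and S100a11; 12.9% of all genes had such groups. The count of 3 fell to 1, S100a8 alone, without wild-type replicate 1, 2 or 3 or without knockout-labelled replicate 4.

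**Figure D1:**
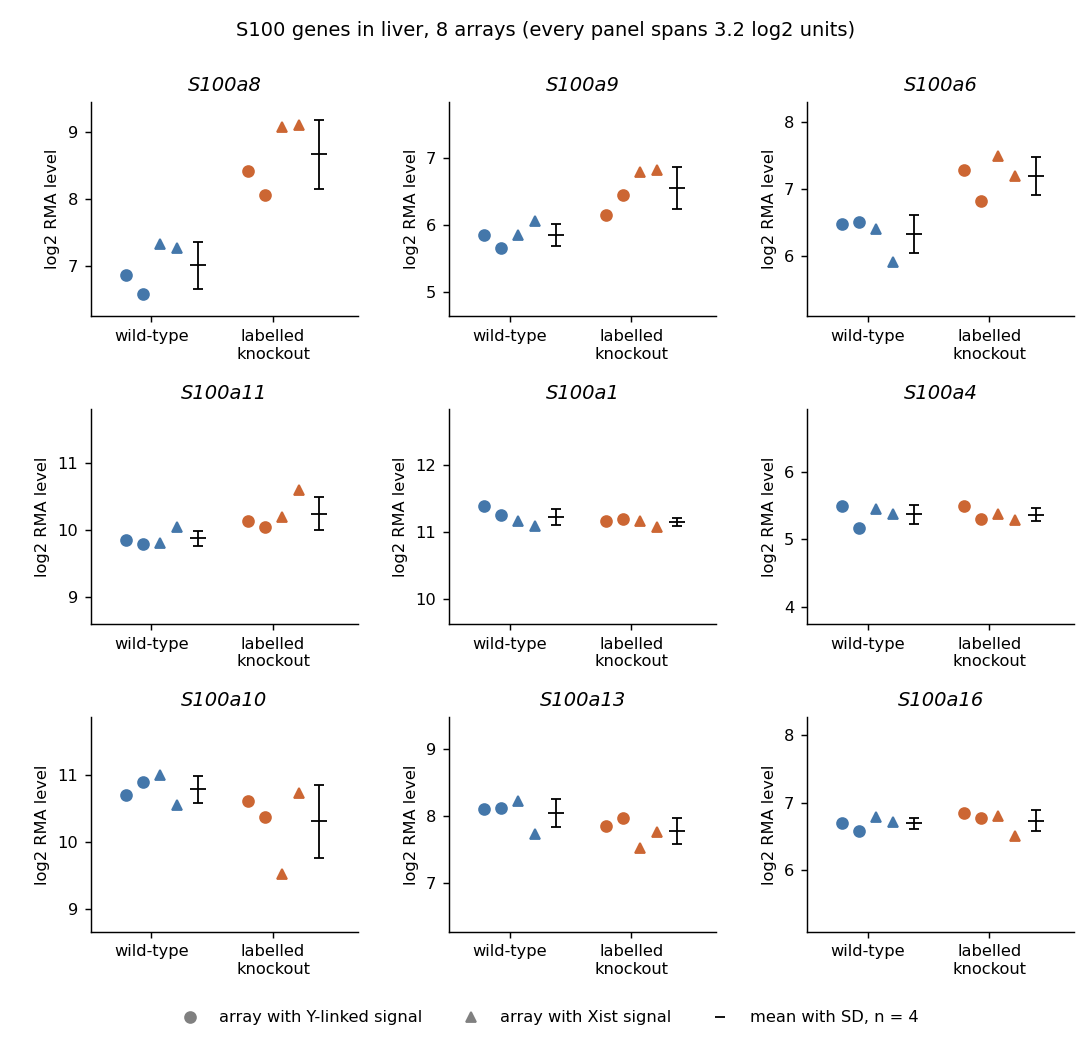
Each panel plots the log2 RMA level of 1 S100 gene (vertical axis) in the 4 wild-type arrays (blue) and the 4 arrays labelled knockout (orange), with circles for arrays with Y-linked signal, triangles for arrays with Xist signal, and a bar for the mean with SD. S100a8 lies at 6.60 to 7.33 in wild-type arrays and at 8.07 to 9.11 in the others, while the S100a4 points of the groups are interleaved.

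S100a8, the smaller chain of calprotectin, showed the largest difference among the 9. It had wild-type levels of 6.87, 6.60, 7.33 and 7.27 (replicates 1 to 4) and, in the same order, labelled-knockout levels of 8.42, 8.07, 9.08 and 9.11. Every array labelled knockout was above every wild-type array, and within each group the replicates 3 and 4, those with Xist signal, were the higher ones. The means were 7.02 ± 0.35 and 8.67 ± 0.51 (SD, n = 4 each), which puts the log2 difference at 1.65 (SE 0.25), or 3.15-fold (95% interval 2.15 to 4.60). The limma adjusted p was 0.0108 and the exact two-sided permutation p was 0.0286, the smallest that 70 arrangements of the arrays allow. The call held in all 21 alternatives run, with adjusted p between 0.000384 and 0.0397. Among them, the looser threshold of 0.1 could not end the call. The mean of a gene's rows left the values of S100a8 unchanged, as it has 1 row.

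S100a9, the partner chain, rose less. It had wild-type levels of 5.85, 5.66, 5.86 and 6.06 (replicates 1 to 4) and, in the same order, labelled-knockout levels of 6.16, 6.45, 6.80 and 6.82. The groups did not overlap, but knockout-labelled replicate 1 was only just above wild-type replicate 4. The means were 5.86 ± 0.17 and 6.56 ± 0.32 (SD, n = 4 each), which puts the log2 difference at 0.70 (SE 0.15), or 1.62-fold (95% interval 1.29 to 2.04; limma adjusted p = 0.0387, exact permutation p = 0.0286). The wild-type mean was below the median level over genes, and without a detection call its fold is uncertain. Leaving out any single array other than knockout-labelled replicate 1 ended the call (adjusted p up to 0.106), as did testing every row of the table (adjusted p = 0.0801).

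The differences of S100a8 and S100a9 had the same sign in Xist and in Y-linked arrays. S100a8 differed by 1.80 in the former and by 1.51 in the latter, and S100a9 by 0.85 and 0.55, where S100a9 had limma adjusted p = 0.178 in the 4 arrays with Y-linked signal. The interaction between genotype label and Xist signal was 0.29 for S100a8 (SE 0.20) and 0.30 for S100a9 (SE 0.19), each with limma adjusted p = 0.919. S100a8 was also higher in arrays with Xist signal than in those with Y-linked signal, by 0.71 (SE 0.11; limma adjusted p = 0.0433 in the fit with both terms, a test added after the values were seen). For S100a9 that difference was 0.36 (SE 0.10; limma adjusted p = 0.497). With this term in the fit, the genotype call of S100a8 had adjusted p = 0.000384 and that of S100a9 had 0.00809.

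S100a6, or calcyclin, is a broad member found in epithelia, fibroblasts and mesothelium as well as in blood cells, and its rise lay between those of S100a9 and S100a8. It had wild-type levels of 6.48, 6.52, 6.40 and 5.91 (replicates 1 to 4) and, in the same order, labelled-knockout levels of 7.28, 6.82, 7.49 and 7.20. The wild-type levels were below the median over genes, so that its fold is uncertain as well. Unlike S100a8, it was lowest in a wild-type array with Xist signal, replicate 4, and the groups did not overlap. The means were 6.33 ± 0.28 and 7.20 ± 0.28 (SD, n = 4 each), which puts the log2 difference at 0.87 (SE 0.16), or 1.83-fold (95% interval 1.42 to 2.35; limma adjusted p = 0.0249, exact permutation p = 0.0286). S100a6 differed by 1.19 among Xist arrays and by 0.55 among Y-linked arrays, where the limma adjusted p was 0.248; the interaction of 0.63 (SE 0.28) had limma adjusted p = 0.904. Without wild-type replicate 1, 2 or 3, or without knockout-labelled replicate 4, it was no longer called (adjusted p up to 0.0712), nor was it when every row of the table was tested (adjusted p = 0.0570).

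S100a11 and S100a10 bind annexins at the cell membrane, and neither passed. S100a11, a partner of annexin A1, had wild-type levels of 9.84, 9.79, 9.81 and 10.04 (replicates 1 to 4) and, in the same order, labelled-knockout levels of 10.13, 10.04, 10.20 and 10.59. Its groups touched without overlapping, with wild-type replicate 4 and knockout-labelled replicate 2 each at 10.04 (log2 difference 0.37, SE 0.12; limma adjusted p = 0.121). S100a10, or p11, pairs with annexin A2 and is a member whose EF hands no longer bind calcium. Its wild-type level was 10.78 ± 0.20 (SD, n = 4), from which wild-type replicates 1 to 4 deviated by -0.09, 0.11, 0.21 and -0.24. The arrays labelled knockout read 10.61, 10.37, 9.52 and 10.73, in that order. Knockout-labelled replicate 3 was the lowest of the 8 arrays, and the SD was 0.55 in that group against 0.20 in wild-type. The log2 difference of -0.47 (SE 0.23) had limma adjusted p = 0.273, and without knockout-labelled replicate 3 it was -0.21 (adjusted p = 0.431). Its 95% interval, -0.99 to 0.04, leaves room for a fall of nearly 1 log2 unit.

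The remaining 4 broad members had small differences with overlapping groups. S100a1, known from heart muscle as a regulator of calcium release, read 11.10 to 11.39 in wild-type arrays and 11.07 to 11.19 in the others (log2 difference -0.08, 95% interval -0.25 to 0.10; limma adjusted p = 0.599). S100a4, or metastasin, is a marker of fibroblasts and of some macrophages and lymphocytes and binds non-muscle myosin. It read 5.17 to 5.50 in wild-type arrays and 5.29 to 5.50 in the others (log2 difference -0.01, 95% interval -0.20 to 0.19; limma adjusted p = 0.974). Its levels were below the median over genes in every array, so a low or absent transcript cannot be told apart from a steady one. S100a13, which takes part in the export of interleukin-1 alpha and fibroblast growth factor 1, read 7.73 to 8.23 in wild-type arrays and 7.52 to 7.97 in the others (log2 difference -0.27, 95% interval -0.55 to 0.01; limma adjusted p = 0.254). S100a16 read 6.57 to 6.78 and 6.50 to 6.85 (log2 difference 0.04, 95% interval -0.16 to 0.24; limma adjusted p = 0.816). The intervals of S100a1, S100a4 and S100a16 lie within 0.25 log2 units of 0, and that of S100a13 extends to -0.55.

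The change of each myeloid member was then set against that of each broad member within arrays, in 14 pairs. For S100a8, the excess over a broad member was between 1.29 and 2.13 log2 units for 6 of the 7, all but S100a6, with no overlap between the groups (exact two-sided permutation p = 0.0286 each). Adjusted over the 14 pairs that p is 0.05, which is not below the threshold. Against S100a6 the excess was 0.78 (exact permutation p = 0.0857). For S100a9, the excess reached the smallest permutation p against S100a1 (0.77) and S100a10 (1.17), and against S100a6 the difference was -0.17 (exact permutation p = 0.543). No pair was below 0.05 as deposited, while 9 of the 14 were after quantile normalization and 9 after cyclic loess. Pairs at the smallest permutation p share the same adjusted p and pass or fail together. With 8 pairs at that p as deposited, the adjusted p lay on the threshold. The change in the count thus does not measure how far normalization moved the differences. S100a6 rose most among the broad members, so its pairs necessarily had the lowest value for each myeloid gene, and S100a9 did not exceed it.

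**Figure D2:**
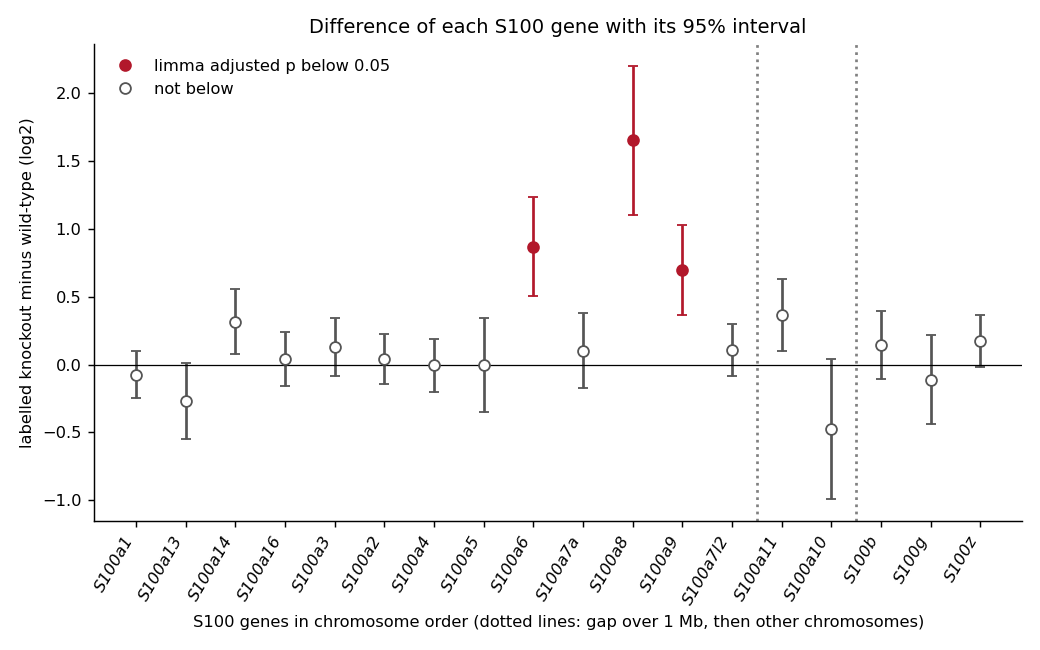
Points show the log2 difference, arrays labelled knockout minus wild-type, of the 18 measured S100 genes in chromosome order, with the 95% interval as bars and filled red points where the limma adjusted p was below 0.05. The intervals of S100a6, S100a8 and S100a9 lie above 0, and S100a7a between S100a6 and S100a8 has a difference of 0.10.

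The called genes are near neighbours in the genome. In the RefSeq gene order of assembly GRCm38.p6, 13 of the 18 measured S100 genes follow each other on chromosome 3 with gaps under 1 Mb, S100a11 and S100a10 lie further along, and 3 lie on other chromosomes. S100a8 and S100a9 are adjacent with no gene annotated between them. S100a6 is separated from S100a8 by S100a7a (0.10; limma adjusted p = 0.662) and a pseudogene, and on its other side lies S100a5 (limma adjusted p = 0.992). None of the 9 S100 genes outside the set, namely S100a2, S100a3, S100a5, S100a7a, S100a7l2, S100a14, S100b, S100g and S100z, was called by limma, and 1 had an unadjusted p under 0.05. That gene is S100a14, an epithelial member (0.32, SE 0.11; adjusted p = 0.133). The 2 other measured genes within that stretch, Pglyrp4, a peptidoglycan recognition protein (0.12; limma adjusted p = 0.387), and 4930529C04Rik (-0.32; limma adjusted p = 0.124), were not called either. The calls thus fell on 3 of the 13 clustered S100 genes; whether position matters was not tested.

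The promoters of the called genes are shown because these transcripts rose in the same arrays, with that of S100a4, a cluster gene that was not called, for comparison. Each is the 250 bases before the annotated gene start in RefSeq GRCm38.p6, 5′ to 3′ on the gene's own strand, and 8 of the 9 genes had an entry. Capitals mark matches to TATAAA, the TATA box, and to TNNNGCAAT, a site type of C/EBP factors, on either strand.
S100a8, chr3:90668821-90669070, plus strand: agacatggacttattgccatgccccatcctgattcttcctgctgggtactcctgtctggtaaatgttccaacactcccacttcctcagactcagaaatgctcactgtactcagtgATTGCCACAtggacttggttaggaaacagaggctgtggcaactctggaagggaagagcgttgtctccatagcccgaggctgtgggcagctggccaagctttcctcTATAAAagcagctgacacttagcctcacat
S100a9, chr3:90695722-90695971, minus strand: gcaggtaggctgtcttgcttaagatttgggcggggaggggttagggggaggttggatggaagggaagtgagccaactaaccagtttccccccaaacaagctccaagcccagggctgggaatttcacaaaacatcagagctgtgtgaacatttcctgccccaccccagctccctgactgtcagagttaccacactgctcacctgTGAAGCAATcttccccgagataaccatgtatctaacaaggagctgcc
S100a6, chr3:90612644-90612893, plus strand: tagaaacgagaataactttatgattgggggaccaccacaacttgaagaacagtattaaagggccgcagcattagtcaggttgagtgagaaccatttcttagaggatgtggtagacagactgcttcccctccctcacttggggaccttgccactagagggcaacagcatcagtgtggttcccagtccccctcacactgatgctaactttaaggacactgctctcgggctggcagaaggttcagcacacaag
S100a4, chr3:90603520-90603769, plus strand: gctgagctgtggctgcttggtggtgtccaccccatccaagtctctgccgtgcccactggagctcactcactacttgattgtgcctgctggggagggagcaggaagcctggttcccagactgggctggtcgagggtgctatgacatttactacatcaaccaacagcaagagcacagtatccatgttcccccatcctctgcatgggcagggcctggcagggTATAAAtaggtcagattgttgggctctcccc

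TATAAA was found at -30 to -25 relative to the start of S100a8 and at -31 to -26 in S100a4. In S100a9 it occupies bases 1 to 6 after the annotated start, just beyond the stretch shown. TNNNGCAAT was found in S100a8 (-135 to -127, minus strand) and S100a9 (-47 to -39), and in no other of the 8 genes. Over windows of 300 bases, from 250 before to 50 after the start, TATAAA occurred in 13.62% and TNNNGCAAT in 7.00% of 32851 promoters. AGGAAGT, the core site of PU.1 and related factors, matched S100a8 (-172 to -166, minus strand) and S100a4 (18 to 24 bases after the start, minus strand), against 9.35% of all promoters. TGANTCA, the AP-1 site, matched S100a11 at 2 places and S100a16, against 7.81%, and TTCNNNGAA, the STAT site, matched none of the 8 genes, against 8.30%. These motifs were chosen with the sequences known, no 2 of the matches overlap, and a match describes letters, not binding.

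Transcripts of factors that act on such sites were measured as well. Of 7 myeloid transcription factors, Spi1, which encodes PU.1, and Cebpd rose, none fell and 5 did not pass (list median 0.24; of all genes 1.56% rose and 1.59% fell). Spi1 read 7.65 to 7.97 in wild-type arrays and 8.39 to 8.55 in the others (log2 difference 0.66, SE 0.09; limma adjusted p = 0.00704). Cebpd, a C/EBP factor of the acute-phase response, read 6.01 to 6.54 and 6.66 to 7.41 (log2 difference 0.84, SE 0.17; limma adjusted p = 0.0292), which no longer passed without any 1 wild-type array or without knockout-labelled replicate 3 or 4 (adjusted p up to 0.0859). The wild-type levels of Cebpd were below the median over genes, so that its fold is uncertain. The other C/EBP genes of the list, Cebpa, Cebpb and Cebpe, did not pass. Of the 7 factors, 5 had a positive difference. Stat3 had a difference of 0.24 (limma adjusted p = 0.103). The part of these factors in the S100 differences was not tested.

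Receptors and adaptors through which extracellular S100A8 and S100A9 signal were next compared. Of 8, Cd14, Myd88 and Tlr4 rose, none fell and 5 did not pass (list median 0.20), where 1.56% of all genes were called higher and 1.59% lower. Cd14, the co-receptor of Toll-like receptor 4, had wild-type levels of 6.77, 6.02, 6.76 and 6.55 (replicates 1 to 4) and, in the same order, labelled-knockout levels of 8.60, 8.47, 8.72 and 10.35 (log2 difference 2.51, SE 0.37; limma adjusted p = 0.0105). Its highest value, in knockout-labelled replicate 4, stood well above the other 3 of that group. The wild-type mean of Cd14, 6.52, was below the median over genes, so its fold is uncertain. Myd88, the adaptor of Toll-like receptors, rose by 0.77 (SE 0.13; limma adjusted p = 0.0151) and did not pass without wild-type replicate 1 or 2 (up to 0.0533). Tlr4 rose by 0.42 (SE 0.09; limma adjusted p = 0.0401), and it lost the call with a common median per array, quantile normalization or cyclic loess and without any array but replicates 1 or 3 labelled knockout (at most 0.114). Tlr4 read 5.75 to 6.05 in wild-type arrays and 6.24 to 6.48 in the others, below the median over genes in every array, so its fold is uncertain. Without wild-type replicate 1 or 2, Cd14 alone was called.

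Calprotectin also carries arachidonic acid to the phagocyte NADPH oxidase, the enzyme that makes superoxide. Of 5 measured subunits or partners, Cybb, Cyba and Rac2 rose, none fell and 2 did not pass (list median 0.56), beside 1.56% of all genes higher and 1.59% lower. Cybb, the catalytic subunit, read 9.43 to 9.76 in wild-type arrays and 9.98 to 10.52 in the others (log2 difference 0.77, SE 0.12; limma adjusted p = 0.0143). Its membrane partner Cyba rose by 0.56 (SE 0.09; limma adjusted p = 0.0181) and the small GTPase Rac2 by 0.60 (SE 0.09; limma adjusted p = 0.0130). Cybb did not pass without wild-type replicate 1 (limma adjusted p = 0.0519). Nor did Cyba when replicate 1 or 2 of the wild-type or replicate 4 labelled knockout was left out (at most 0.0581). Rac2 alone was thus called without wild-type replicate 1. In Xist arrays alone none of Cybb, Cyba and Rac2 passed, and in Y-linked arrays alone only Cybb of them did.

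Binding partners of the broad members were compared last. Of 8 measured annexins and other partners, none was called higher, Syt1 fell and 7 did not pass (list median -0.19), with 1.59% of all genes called lower and 1.56% higher. Anxa1, the partner of S100a11, read 6.25 to 6.64 in wild-type arrays and 6.51 to 7.70 in the others (log2 difference 0.73, SE 0.22; limma adjusted p = 0.0995), with the higher values in knockout-labelled replicates 3 and 4; without replicate 2 of that group it was called (0.94; adjusted p = 0.0276). Anxa2, the partner of S100a10, singled out after its values were seen, had -0.22 (SE 0.16; limma adjusted p = 0.464), and Ahnak, a scaffold held by that pair, had -0.36 (SE 0.12; limma adjusted p = 0.133). Syt1, a calcium sensor of vesicle release that joins S100a13 in export, fell by 0.62 (SE 0.12; limma adjusted p = 0.0307) and did not pass without any 1 wild-type array or without replicate 2 or 4 labelled knockout (at most 0.0777).

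**Figure D3:**
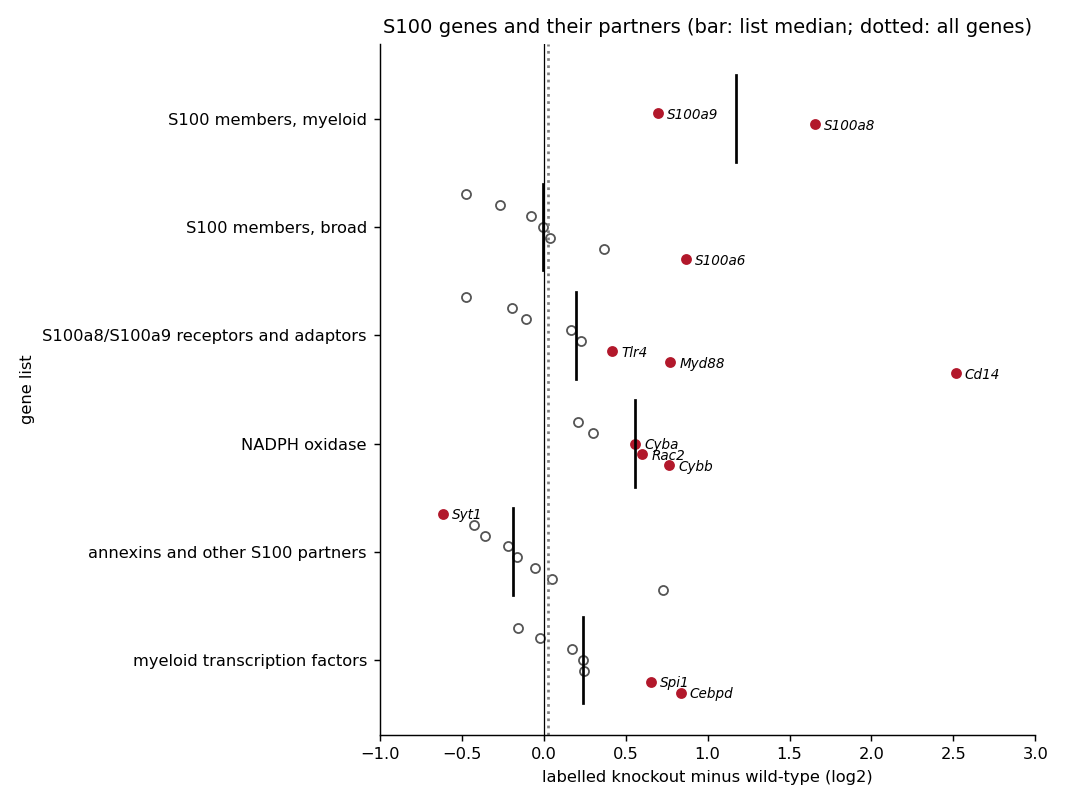
Each point is the log2 difference, arrays labelled knockout minus wild-type, of 1 gene in 6 lists, filled red and named where the limma adjusted p was below 0.05; a black bar marks each list's median and the dotted line the median of all genes, 0.03. Called genes are to the right in 5 lists, and Syt1 is the called gene to the left.

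Most markers of neutrophils rose in the arrays labelled knockout, as S100a8 did. Of 17 measured neutrophil markers, 11 rose, 1 fell and 5 did not pass (list median 0.80; all genes 0.03, with 1.56% called higher and 1.59% lower), and the log2 of their summed level was 10.75 to 11.02 in wild-type arrays and 11.36 to 12.00 in the others. Set against wild-type means, the median of these markers was 0.52, 0.48, 0.97 and 0.95 in knockout-labelled replicates 1 to 4, and S100a8 deviated by 1.40, 1.05, 2.07 and 2.10 in the same arrays. In wild-type replicates 1 to 4 the marker median was 0.01, -0.09, -0.03 and 0.09, and S100a8 deviated by -0.14, -0.42, 0.31 and 0.25. Wild-type replicate 3 was thus in the higher pair for S100a8 but not for the markers. Among the knockout-labelled arrays, replicates 3 and 4, with Xist signal, were the higher pair for both. The granule gene Ngp read 7.91, 7.71, 9.21 and 9.24 there (log2 difference from wild-type 2.42, limma adjusted p = 0.00851). Its wild-type levels, 5.76 to 6.48, were below the median over genes, so its fold is uncertain. The collagenase Mmp8 read 8.38, 8.14, 9.23 and 9.41 in the knockout-labelled arrays (log2 difference from wild-type 2.16, limma adjusted p = 0.00815). The chemokine receptor Cxcr2 rose by 0.86 (limma adjusted p = 0.00815). Prtn3, a protease of early granules, was the called gene that fell, by 0.72 (limma adjusted p = 0.0101), named after its value was seen. The count of 11 was 4 without wild-type replicate 1 or without knockout-labelled replicate 4, 5 without wild-type replicate 2 or 3 and 6 without wild-type replicate 4. The part of these markers in the S100a8 and S100a9 differences was not tested.

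Some markers of monocytes and macrophages rose too. Of 10 monocyte markers 4 rose and 6 did not pass (list median 0.69; 1.56% of all genes rose), with a summed level of 9.96 to 10.25 in wild-type arrays and 10.66 to 11.22 in the others. Of 13 Kupffer cell and macrophage markers 6 rose and 7 did not pass (list median 0.56; again against 1.56%), with sums of 13.40 to 13.68 and 13.90 to 14.21. In knockout-labelled replicate 3, where S100a8 deviated by 2.07, the monocyte median was 0.30 and the macrophage median 0.25, the lowest of that group. Fcgr4, an Fc receptor of monocytes, rose by 1.37 (limma adjusted p = 0.00605) and C1qb, a complement subunit made by macrophages, by 0.64 (limma adjusted p = 0.00587). The monocyte count was 2 without wild-type replicate 1 or 2, 1 in Xist arrays alone and 8 at an adjusted p below 0.1. The macrophage count was 2 without either of them or without knockout-labelled replicate 4, 3 without knockout-labelled replicate 2 and 3 with a common median per array, but 10 after cyclic loess and 11 with array weights. The part of these markers was not tested.

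Marker lists of other cell types in which S100a6 is known had summed levels that overlapped between the groups, and their counts stand beside 1.56% of all genes called higher and 1.59% lower. Of 7 bile duct markers none rose, 1 fell and 6 did not pass (list median -0.11), and their summed level was 10.10 to 10.37 in wild-type arrays and 10.31 to 10.66 in the others. The bile duct marker that fell is Pkhd1 (log2 difference -0.84, SE 0.16, limma adjusted p = 0.0249), and its groups did not overlap. Sox9, a transcription factor of bile duct cells, had the highest mean level of the 7 (9.75 over the 8 arrays). A sum of levels is weighted to such rows. The groups of Sox9 did not overlap either (0.52, SE 0.13, limma adjusted p = 0.0583). It was called higher in 7 of 21 alternatives, among them the filter on low genes, quantile normalization, cyclic loess, array weights and leaving out knockout-labelled replicate 3 (0.63; adjusted p = 0.0232). Of 11 stellate cell and fibroblast markers 1 rose, 2 fell and 8 did not pass (median -0.16; sums 12.81 to 13.09 and 12.41 to 13.02). The genes that fell are Lrat (log2 difference -1.01, limma adjusted p = 0.0428) and Lum (-0.94, limma adjusted p = 0.0473). Of the 11 markers, 2 had a positive difference. The gene that rose is Vim, vimentin, which many other cells also express (0.53, limma adjusted p = 0.0160). Vim did not pass without wild-type replicate 1 or without replicate 4 labelled knockout (at most 0.0549). None of 4 mesothelial markers was called by limma (0 at an unadjusted p under 0.05; median -0.02; sums 7.99 to 9.16 and 8.11 to 8.80). T and NK cell markers, where S100a4 is also known, had 2 of 12 called higher and 10 that did not pass (median 0.15; sums 10.05 to 10.36 and 10.29 to 10.56). That count of 2 was 0 without wild-type replicate 1, 2 or 4 or without knockout-labelled replicate 2 or 4, and the bile duct count of 1 was 0 when the first wild-type or the fourth knockout-labelled array was left out. The 2 stellate genes that fell were 0 without any array but knockout-labelled replicate 1. Of 9 endothelial markers 1 rose and 8 did not pass (median 0.01; sums 13.22 to 13.51 and 13.46 to 13.59). The 1 that rose is Lyve1, a hyaluronan receptor of liver sinusoidal and lymphatic endothelium, by 1.05 (SE 0.13) or 2.07-fold (limma adjusted p = 0.00660). Its groups did not overlap, and it was called in all 21 alternatives, among which the looser threshold of 0.1 could not end the call. Of the 9 endothelial markers, 5 had a positive difference. Emcn (-0.45, limma adjusted p = 0.0792) and Fcgr2b (-0.23, limma adjusted p = 0.148) were lower with groups that did not overlap, and neither passed. The part of these cells in the S100a6 difference was not tested.

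**Figure D4:**
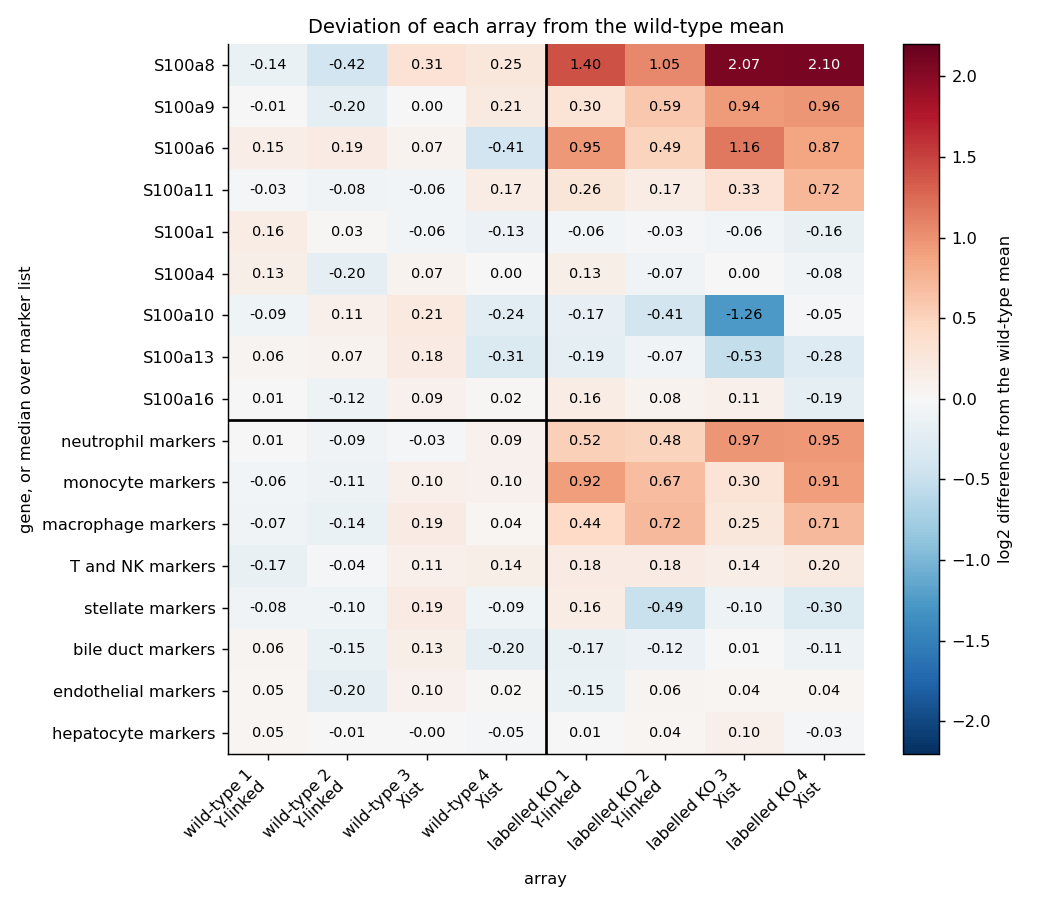
Colours and printed numbers give the log2 difference of each array (columns) from the wild-type mean, for the 9 S100 genes (upper rows) and the median over each marker list (lower rows). S100a8 and the neutrophil markers are highest in knockout-labelled replicates 3 and 4, at 2.07 and 2.10 and at 0.97 and 0.95, while S100a10 is lowest in replicate 3 at -1.26.

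Within groups, the S100 genes did not vary as a block. After each gene was centred on its group mean, the correlation over the 8 arrays was 0.79 between S100a8 and S100a9, 0.69 between either of them and S100a11, and 0.20 between S100a8 and S100a6. S100a13 had -0.58 with S100a8, -0.63 with S100a9 and 0.70 with S100a10. These are descriptions over 8 arrays that share the difference between Xist and Y-linked arrays, so they carry no p. By the same measure over 11090 genes above the median level, those most like S100a8 were Atxn7l3b (0.98), Sf1 (0.98), Wdfy1 (0.98), Sh3glb1 (0.97) and Naa20 (0.97). Those most like S100a9 were Hgsnat (0.97), Ndufaf2 (0.97), Cdyl2 (0.97), Hmces (0.96) and Fbrs (0.96). Genes below the median level, among them several neutrophil markers, were not searched. The neutrophil markers Mmp8, Ngp and Cxcr2 were searched and were not among those most like S100a8 or S100a9.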

How the data were processed

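Liver RNA of 8 mice was measured on 8 arrays. The deposited table holds log2 values made by the authors by RMA. The version was R 3.0.1 per the submitters' processing notes. Further settings and the genome build were not stated there. The table has 41345 rows with values from 2.49 to 13.8; 23521 rows name 1 gene, 1814 name several and 16010 are unnamed. Where a gene has several rows, the one with the highest mean was kept, which gave 22180 genes. Groups and replicate numbers came from the sample titles. The design text counts 4 mice per genotype, but the labels give no animal numbers, so which array is which mouse, litter or cage was not known.

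The groups were tested in limma 3.58.1 under R 4.3.3 (lmFit, then eBayes with no trend), knockout-labelled minus wild-type, with Benjamini-Hochberg adjustment over all 22180 genes and no filter; a gene was called, and is said to have risen or fallen, at an adjusted p below 0.05. Exact two-sided permutation tests ran over 70 arrangements. The steps were tested on simulated data. The S100 genes, the lists and the motifs were chosen with earlier results of these data known. Genes named outside the 9 are Il10, the other S100 genes, up to 3 of each list with the smallest p, measured genes between S100 genes, and the 5 most like S100a8 and S100a9; not all 76 are printed. Arrays were told apart by Xist against Kdm5d, Eif2s3y and Uty.

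Alternatives were a filter on the lowest 40% of genes, the mean of a gene's rows, every row of the table, cyclic loess, quantile normalization, setting each array to a common median, trend and robust settings, array weights, a replicate block, a term for Xist against Y-linked arrays, either kind of array alone, an adjusted p below 0.1 and leaving out each array. Promoter sequences are RefSeq GRCm38.p6. Python 3.11.15 and matplotlib 3.10.9 made the figures.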

Additional observations from a re-analysis of the deposited data

Results flagged for a closer look

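S100a7l2, an S100 gene outside the set, had differences of opposite sign in Xist arrays and in Y-linked arrays. In Y-linked arrays, replicate 2 of the wild-type and of the knockout-labelled group each read 4.07. The log2 difference of the gene was 0.30 in Xist arrays, replicates 3 and 4 of each group, and -0.08 in Y-linked arrays, replicates 1 and 2. The difference between them was 0.38 (SE 0.15; limma interaction adjusted p = 0.872), which did not pass. The level of this gene was at most 4.25, below the array medians of 6.09 to 6.22.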

How the results depend on the processing

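S100a8 stayed called and higher under all 21 alternatives, among which the looser threshold of 0.1 could not end the call. The count of 3 called S100 genes was 1 when every row of the table was tested and in Y-linked arrays, and 1 to 3 without a single array. S100a9 (0.70) had adjusted p = 0.0801 with every row tested and a difference of 0.55 (adjusted p = 0.178) in Y-linked arrays; without a single array its difference was 0.61 to 0.83. S100a6 had adjusted p = 0.0570 with every row tested. By adjusted p, 0 of the 14 pairs were below 0.05 as deposited and 9 were after quantile normalization or cyclic loess. Pairs at the smallest permutation p pass or fail together, so that count moves in a step. The exact test was not run on 7 arrays. The count over all genes called higher was 102 to 844 and lower 69 to 841 over the alternatives. The filter left out S100a4, so it has 20 alternatives. No result changed sign as a call. Same-numbered arrays did not deviate together in every pair (correlations 0.27, 0.04, -0.10 and 0.29), so the numbers were not taken as pairs; with the replicate block S100a8 (1.65), S100a9 (adjusted p = 0.0302) and S100a6 (adjusted p = 0.0395) stayed called, and over all genes 225 were higher and 272 lower. Under that block Tlr4 (adjusted p = 0.0806), Cyba (0.0558) and Syt1 (0.0806) did not pass, and the macrophage count was 3 in place of 6, the T and NK cell count 0 in place of 2 and the bile duct count of lower genes 0 in place of 1.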
